A study of Mus musculus with 8 samples.

Results

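The mouse genes Erg, Fli1, Ets1, Elk3, Sox7, Sox17, Sox18, Tal1, Lyl1 and Gata2 encode transcription factors of the endothelial lineage, from the ETS, SoxF, basic helix-loop-helix (bHLH) and GATA families. They are a list of 10 genes taken by name from the 55401 gene identifiers of the count table. The rule uses no measured value, but the members were chosen with earlier results of these data known. RNA was sequenced from 2 libraries of EHE26, 3 of EHE17 and 3 of EHE6, all mouse lines of a vascular tumour, epithelioid hemangioendothelioma (EHE), whose cells carry endothelial markers. The labels give the name of the line and the replicate number. The genotype or driver of each line, the treatment, the age and sex of the source animals, and whether a line is 1 clone, are not given in the sources used here. Nothing in the labels says that replicates came from separate cultures, so the p-values below reflect library-to-library spread, which may be technical.

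ETS factors bind a short GGAA core in DNA, and in endothelial cells Erg and Fli1 act at many of the same enhancers to keep genes such as Cdh5 on. The SoxF factors bind the minor groove of DNA, are needed for vessel growth and arterial and lymphatic fate, and can stand in for each other in part. Tal1 and Lyl1 pair with E proteins at E-box sites and join Gata2, Lmo2 and Ldb1 in one complex, in endothelium as well as in blood stem cells. Levels below are CPM, read counts scaled to library size after TMM correction, and comparisons between genes use CPM per kb of exon.

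Of these factors, 8 of 10 were at 10 CPM or more in every library: Erg, Fli1, Ets1, Elk3, Sox7, Tal1, Lyl1 and Gata2. The other two, Sox17 and Sox18, were not. Sox17 had no read in either EHE26 library, and Sox18 was at 1.91 CPM in EHE26 replicate 2, against 1540 CPM in EHE17 replicate 2. All 10 passed the filter on low counts. None was called in any of the 3 comparisons, a call being an adjusted p under 0.05 together with a log2 difference of 1 or more in size.

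Promoter windows are shown for the members whose levels in 1 EHE6 library departed most clearly in opposite directions and that have a window in the RefSeq table, so that a reader can see the DNA beside the values: Erg, which was lower there, and Tal1, Lyl1 and Gata2, which were higher. RefSeq windows (build GRCm38.p6) run from 250 bases before to 50 bases after a start site, and 5 of the 10 members matched, with 9 windows. The Erg window is at chr16:95586544-95586843 on the minus strand, the Tal1 window at chr4:115056176-115056475, the Lyl1 window at chr8:84701207-84701506 and the Gata2 window at chr6:88193641-88193940, these last on the plus strand. All 4 windows sit at the start of the gene in the GENCODE annotation. Capitals mark the ETS core GGAA and the GATA motif AGATAA, each on either strand (TTCC and TTATCT on the opposite one).
Erg: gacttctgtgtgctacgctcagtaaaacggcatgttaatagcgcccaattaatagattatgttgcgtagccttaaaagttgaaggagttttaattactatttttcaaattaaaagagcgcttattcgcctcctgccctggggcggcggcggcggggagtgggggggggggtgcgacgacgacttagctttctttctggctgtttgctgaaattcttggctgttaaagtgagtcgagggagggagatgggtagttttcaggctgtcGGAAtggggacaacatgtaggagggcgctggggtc
Tal1: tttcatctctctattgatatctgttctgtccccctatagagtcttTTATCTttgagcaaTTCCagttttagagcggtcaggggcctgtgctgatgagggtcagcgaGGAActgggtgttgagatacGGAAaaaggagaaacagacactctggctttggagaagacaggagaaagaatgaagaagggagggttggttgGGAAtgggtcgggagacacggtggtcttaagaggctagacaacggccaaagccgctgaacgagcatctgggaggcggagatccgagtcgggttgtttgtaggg
Lyl1: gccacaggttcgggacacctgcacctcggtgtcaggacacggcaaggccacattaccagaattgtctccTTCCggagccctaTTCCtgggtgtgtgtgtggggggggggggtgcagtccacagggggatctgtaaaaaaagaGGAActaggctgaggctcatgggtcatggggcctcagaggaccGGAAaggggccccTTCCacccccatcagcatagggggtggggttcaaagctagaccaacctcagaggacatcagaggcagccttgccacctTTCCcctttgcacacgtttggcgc
Gata2: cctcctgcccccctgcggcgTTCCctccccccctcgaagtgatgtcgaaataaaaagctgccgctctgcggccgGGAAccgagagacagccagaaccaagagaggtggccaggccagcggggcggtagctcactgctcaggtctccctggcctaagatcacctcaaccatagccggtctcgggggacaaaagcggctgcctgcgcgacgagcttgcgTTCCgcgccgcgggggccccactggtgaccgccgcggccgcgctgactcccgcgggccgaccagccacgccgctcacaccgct
The ETS core occurred 1 time in the Erg window, 4 times in the Tal1 window, 6 times in the Lyl1 window and 3 times in the Gata2 window. It is so short that 96.0% of all 32851 RefSeq windows, several per gene, held it. In the Lyl1 window 2 of the cores were preceded by CC (CCGGAA), a longer form that contains the core and that 14.9% of windows held. AGATAA occurred 1 time in the Tal1 window and in 11.2% of all windows. CAGCTG, the only E-box form searched, was present in 16.3% of windows and in none of these 4. Other E-box forms were not counted. A second Gata2 window at chr6:88198414-88198713 held 1 copy of CAGCTG and 1 ETS core. Erg has 2 further windows, inside the gene: that at chr16:95459299-95459598 held 2 ETS cores and 1 AGATAA, and that at chr16:95530316-95530615 held 4 ETS cores. The further Tal1 window, at chr4:115057561-115057860, held 4 ETS cores. A match describes letters and says nothing about binding.

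The libraries differed in ways the line did not explain. EHE17 and EHE6 replicates 1 and 2 had total counts of 69366708 to 96237665 and 24462 to 25177 genes with a read, and are called the first set. Replicate 3 of EHE17 and of EHE6 and both EHE26 libraries had totals of 44620965 to 55802651 and 20066 to 20682 genes with a read, and are called the second set. The sets were drawn from the totals, and the first principal component of log2 CPM, which held 56.2% of the variance, split the libraries the same way. EHE26 lies wholly in the second set, and only replicate 3 of EHE17 and of EHE6 share that set with it. The pooled comparisons have no term for the set, so in them a difference of EHE26 mixes the line and the set. Settings that use the set are given as alternatives. Of 8 epithelial markers, 5 or 6 were at 1 CPM or more in each library of the first set and at most 1 in each of the second. Summed endothelial effector genes were at 8451 and 6891 CPM in EHE26, 20090, 21700 and 16240 CPM in EHE17, and 17990, 20219 and 5364 CPM in EHE6. The part of these library differences in the results below was not tested.

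**Figure D1:**
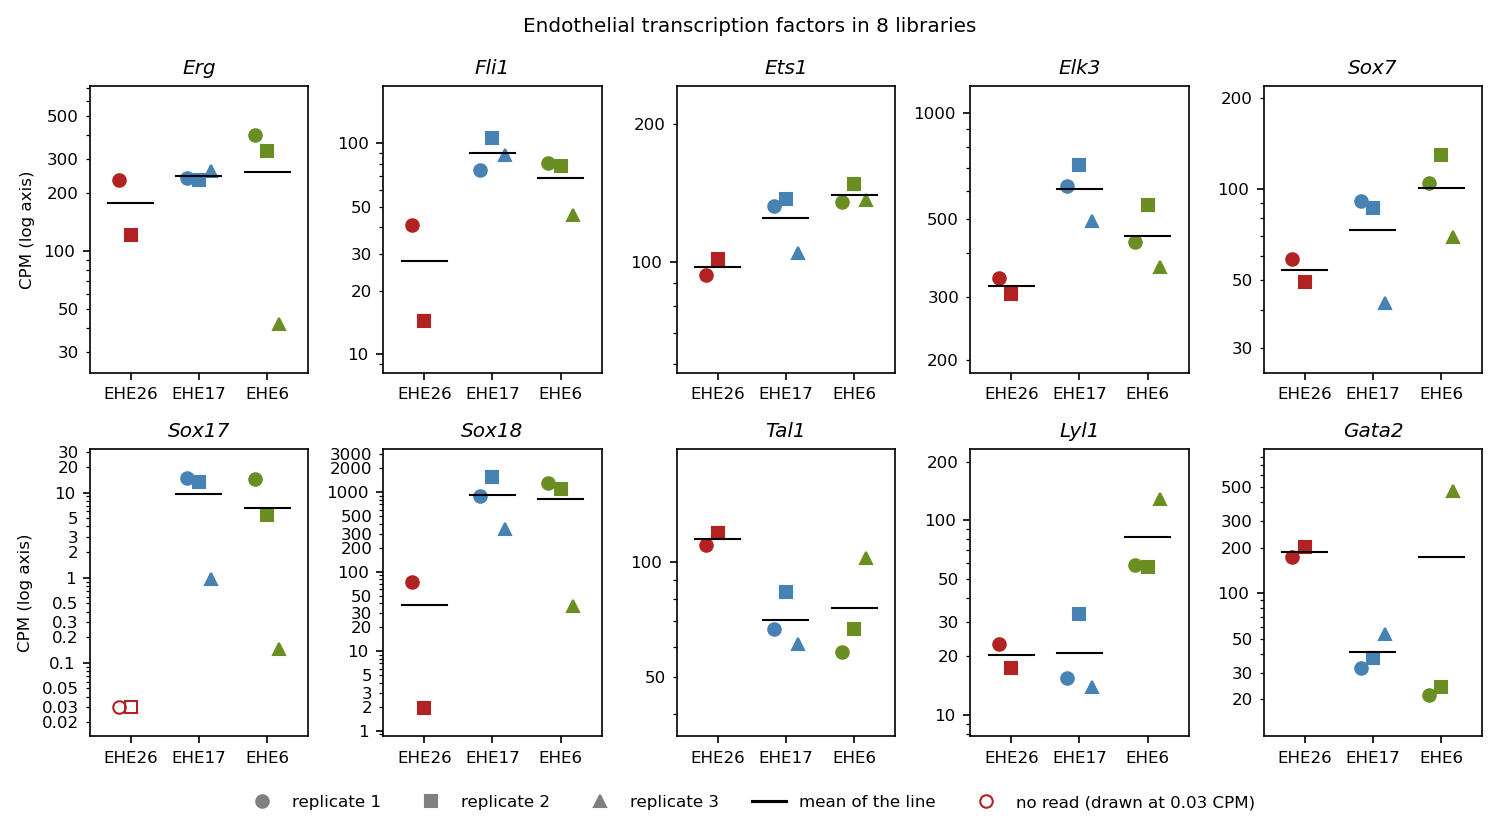
Level of each of the 10 factors in every library (CPM, log axis, a scale of its own in each panel). Colours mark the line, shapes the replicate number, black lines the mean of the line, and open points libraries with no read. Ets1, Elk3, Sox7 and Tal1 spread less than 4-fold over the 8 libraries. Sox17 and Sox18 were low in both EHE26 libraries and in EHE6 replicate 3, and Sox17 was low in EHE17 replicate 3 too.

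Erg, an ETS factor that maintains endothelial identity and junctions, is ENSMUSG00000040732, on the minus strand at chr16:95359169-95586593 (GRCm38, as are all gene positions here). It was at 233 and 121 CPM in EHE26 replicates 1 and 2, at 238, 233 and 260 CPM in EHE17 replicates 1, 2 and 3, and at 399, 331 and 42.0 CPM in EHE6 replicates 1, 2 and 3. EHE17 was even, and EHE6 held both the highest values and the lowest one, so it overlapped with both other lines. EHE26 lay below EHE17, although EHE26 replicate 1 and EHE17 replicate 2 were level to 3 digits. The means were 177 ± 78.6 CPM in EHE26 (SD, n = 2), 244 ± 14.5 CPM in EHE17 (SD, n = 3) and 257 ± 190 CPM in EHE6 (SD, n = 3). In bulk RNA, fewer cells with a transcript and less of it per cell cannot be told apart, and this holds for every level given here. On the log2 scale EHE26 minus EHE6 was -0.54 ± 0.77 (fold change ± SE), EHE26 minus EHE17 -0.46 ± 0.77 and EHE17 minus EHE6 -0.08 ± 0.68, with edgeR adjusted p of 0.790, 0.785 and 1. EHE17 minus EHE6 was -0.62 in the first set and, between 1 library of each line, 2.63 in the second.

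Fli1, the close relative of Erg that binds the same core, is ENSMUSG00000016087, at chr9:32422204-32542861 on the minus strand. It was at 40.9 and 14.5 CPM in EHE26, at 74.9, 106 and 87.7 CPM in EHE17 and at 80.7, 78.0 and 45.7 CPM in EHE6. Both EHE26 libraries lay below every library of the other lines, by a small margin against EHE6 replicate 3, and EHE17 and EHE6 overlapped. EHE26 had a log2 fold change of -1.30 ± 0.47 against EHE6 (edgeR adjusted p = 0.270) and of -1.69 ± 0.48 against EHE17 (edgeR adjusted p = 0.163). For EHE17 against EHE6 it was 0.39 ± 0.41 (edgeR adjusted p = 1). DESeq2 called the EHE26 against EHE17 difference at -1.70 ± 0.55 (adjusted p = 0.0286, range over 15 alternatives 0.0286 to 0.634). In the second set alone that difference was -1.66. It was -2.63 without EHE26 replicate 1 and -1.12 without EHE26 replicate 2, libraries that differed by -1.50 on the log2 scale (replicate 2 minus replicate 1).

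Ets1, a widely used ETS activator in endothelium and lymphocytes, lies 93359 bases from Fli1, as ENSMUSG00000032035 at chr9:32636221-32757820 on the plus strand. Its levels were 93.8 and 101 CPM in EHE26, 133, 137 and 104 CPM in EHE17, and 135, 148 and 137 CPM in EHE6. It was the steadiest of the factors with reads in every library, its highest level being 1.58 times its lowest, and EHE26 lay just below both other lines without overlap. Unlike Fli1, its neighbour, it differed little between the EHE26 libraries (0.11 on the log2 scale, replicate 2 minus replicate 1). Log2 fold changes were -0.52 ± 0.23 (EHE26 against EHE6), -0.36 ± 0.23 (EHE26 against EHE17) and -0.16 ± 0.20 (EHE17 against EHE6), with edgeR adjusted p of 0.319, 0.450 and 1.

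Elk3, a ternary complex factor that works with serum response factor downstream of MAP kinase signalling, is ENSMUSG00000008398, at chr10:93247414-93311135 on the minus strand. It was at 341 and 306 CPM in EHE26, at 619, 714 and 495 CPM in EHE17 and at 430, 550 and 367 CPM in EHE6. Both EHE26 libraries were lowest, and EHE17 and EHE6 overlapped. The means were 324 ± 24.4 CPM in EHE26 (SD, n = 2), 609 ± 110 CPM in EHE17 (SD, n = 3) and 449 ± 93.1 CPM in EHE6 (SD, n = 3). For Elk3 the log2 fold change of EHE26 was -0.47 ± 0.28 relative to EHE6 and -0.91 ± 0.29 relative to EHE17, and that of EHE17 relative to EHE6 was 0.44 ± 0.25, with edgeR adjusted p of 0.451, 0.195 and 0.860. Elk3 shares 316 exonic bases with Cdk17 on the opposite strand, and since the strand setting is not given, reads there cannot be assigned to one of them.

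The SoxF genes held both the highest and the lowest mean of the list per kb of exon in EHE17 and in EHE6. Sox18, mutated in mouse and human disorders of hair, lymphatic and blood vessels, is ENSMUSG00000046470, at chr2:181669836-181671640 on the minus strand. It was at 74.4 and 1.91 CPM in EHE26, at 901, 1540 and 345 CPM in EHE17 and at 1302, 1090.4 and 37.1 CPM in EHE6. EHE6 replicate 3 lay between the EHE26 libraries and far from its own line, and EHE17 replicate 3 was the lowest of its line. The highest level was 807 times the lowest. The mean was 38.1 ± 51.2 CPM in EHE26 (SD, n = 2), 929 ± 598 CPM in EHE17 (SD, n = 3) and 810 ± 677 CPM in EHE6 (SD, n = 3). Fitted log2 fold changes of EHE26 were -4.41 ± 1.85 against EHE6 (edgeR adjusted p = 0.310) and -4.60 ± 1.87 against EHE17 (edgeR adjusted p = 0.280). The value was 0.20 ± 1.35 for EHE17 against EHE6 (edgeR adjusted p = 1). DESeq2 called EHE26 lower in both, at -4.44 ± 1.31 against EHE6 (adjusted p = 0.0141, range over 15 alternatives 0.0141 to 0.996) and -4.61 ± 1.31 against EHE17 (adjusted p = 0.00878, range over 15 alternatives 0.00878 to 0.690). Within the second set EHE26 minus EHE6 was 0.042 and EHE26 minus EHE17 was -3.17. The value of EHE26 against EHE17 was -8.93 without EHE26 replicate 1 and -3.63 without EHE26 replicate 2.

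Sox17, which drives arterial fate and is also an endoderm factor, is ENSMUSG00000025902, at chr1:4490931-4497354 on the minus strand. It had 0 and 0 CPM in EHE26, 14.7, 13.5 and 0.963 CPM in EHE17 and 14.3, 5.42 and 0.147 CPM in EHE6. Both EHE26 libraries were below all others, and replicate 3 was the lowest of its line in EHE17 as in EHE6, with 48 and 7 reads. With 3 counts over both EHE26 libraries as the floor (0.030 CPM), Sox17 was at least 370-fold lower in EHE26 than in pooled EHE17 and at least 252-fold lower than in pooled EHE6. Set against single libraries of the second set, it was at least 32.1-fold lower than in EHE17 replicate 3 and at least 4.90-fold lower than in EHE6 replicate 3. The floor covers counting error only. The edgeR adjusted p of EHE26 was 0.181 relative to EHE6 and 0.154 relative to EHE17. Without EHE6 replicate 3, edgeR called Sox17 in both comparisons, beside 8.58% and 7.44% of all genes. The edgeR adjusted p was then 0.0265 and 0.0261 (ranges over 15 alternatives each 5.04e-06 to 0.606 and 1.15e-06 to 0.563). That fit leaves only first-set libraries in EHE6, so EHE26 against EHE6 then also compares the sets. EHE17 relative to EHE6 was 0.55 ± 1.39 on the log2 scale (edgeR adjusted p = 1). Sox17 shares 804 exonic bases with Gm37587 on the opposite strand, a gene that held 13 reads over all libraries.

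Sox7, the third SoxF gene and an early one in the blood and endothelial lineage, is ENSMUSG00000063060, at chr14:63943673-63950732 on the plus strand. It kept between 42.0 and 129 CPM everywhere: 58.9 and 49.3 CPM in EHE26, 91.0, 86.8 and 42.0 CPM in EHE17, and 104, 129 and 69.8 CPM in EHE6. EHE17 replicate 3 was the lowest library, EHE26 lay below all of EHE6, and EHE26 and EHE17 overlapped. Sox7 log2 fold changes were -0.90 ± 0.41 (EHE26 against EHE6), -0.44 ± 0.40 (EHE26 against EHE17) and -0.46 ± 0.35 (EHE17 against EHE6), with edgeR adjusted p of 0.324, 0.601 and 0.970. In the second set alone EHE26 stood at 0.37 relative to EHE17.

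Per kb of exon, the level of Sox18 was 2.57 and 0.0789 times that of Sox7 in EHE26, 20.2, 36.1 and 16.7 times in EHE17, and 25.4, 17.2 and 1.08 times in EHE6. Sox18 was thus the main SoxF transcript in EHE17 and in 2 of 3 EHE6 libraries, about level with Sox7 in EHE6 replicate 3, and below it in EHE26 replicate 2. The SoxF level, summed over the 3 genes, was 63.8 and 16.1 CPM per kb in EHE26, 587, 980 and 226 in EHE17, and 838, 713 and 44.1 in EHE6. The ETS sum moved less, at 165 and 118 CPM per kb in EHE26, 242, 270 and 221 in EHE17, and 249, 256 and 122 in EHE6. Within it Erg was 5.72 and 8.46 times the level of Fli1 in EHE26, 3.20, 2.22 and 2.98 times in EHE17, and 4.97, 4.27 and 0.923 times in EHE6. EHE6 replicate 3 was the 1 library of 8 in which Fli1 exceeded Erg.

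**Figure D2:**
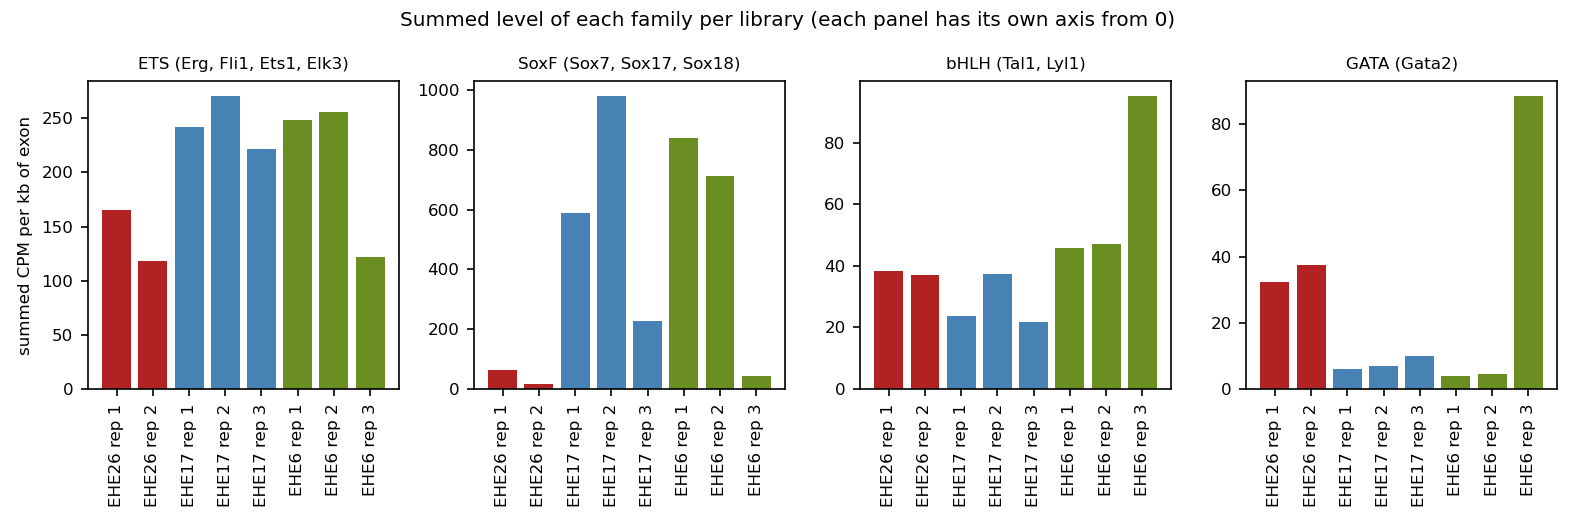
Summed level of each family (CPM per kb of exon, each panel with its own axis from 0) in the 8 libraries, 1 bar per library, coloured by line. SoxF is high in EHE17 and in EHE6 replicates 1 and 2, while GATA is high in EHE26 and in EHE6 replicate 3.

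Tal1, the bHLH factor that starts blood development and is also active in endothelium, is ENSMUSG00000028717, at chr4:115056426-115071755 on the plus strand. It was at 111 and 119 CPM in EHE26, at 66.7, 83.4 and 61.0 CPM in EHE17 and at 58.0, 67.0 and 103 CPM in EHE6. EHE26 was highest without overlap, and EHE6 replicate 3 came closest to it. EHE26 stood 0.60 ± 0.30 above EHE6 and 0.71 ± 0.30 above EHE17 on the log2 scale, and EHE17 minus EHE6 was -0.11 ± 0.27, with edgeR adjusted p of 0.354, 0.290 and 1. All 8 values spanned 2.05-fold.

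Lyl1, the close relative of Tal1 that can replace part of its function in adult blood cells, is ENSMUSG00000034041, at chr8:84701457-84704715 on the plus strand. It was at 23.2 and 17.5 CPM in EHE26, at 15.5, 33.2 and 13.9 CPM in EHE17 and at 58.6, 57.4 and 129 CPM in EHE6. All EHE6 libraries lay above all others, EHE6 replicate 3 by the most, and EHE26 and EHE17 overlapped. It was the 1 member whose EHE17 and EHE6 libraries did not overlap. The mean was 20.4 ± 4.02 CPM in EHE26 (SD, n = 2), 20.9 ± 10.7 CPM in EHE17 (SD, n = 3) and 81.7 ± 41.1 CPM in EHE6 (SD, n = 3). Lyl1 had a log2 fold change of -2.0 ± 0.54 for EHE26 against EHE6 (edgeR adjusted p = 0.160), -1.97 ± 0.46 for EHE17 against EHE6 (edgeR adjusted p = 0.273) and -0.03 ± 0.50 for EHE26 against EHE17 (edgeR adjusted p = 0.978). DESeq2 called Lyl1 lower in EHE26 than in EHE6 (-2.02 ± 0.59, adjusted p = 0.0121, range over 15 alternatives 0.0121 to 0.672) and lower in EHE17 than in EHE6 (-1.98 ± 0.52, adjusted p = 0.0127, range over 16 alternatives 0.0127 to 0.667). For EHE17 against EHE6 the direction was the same within each set, at -1.24 ± 0.40 in the first (edgeR adjusted p = 0.308, with 0.523% of all genes called) and -3.21 in the second, a difference between 1 library of each line. Within the second set EHE26 minus EHE6, which has 1 library there, was -2.66. Lyl1 shares 4 exonic bases with Nfix on the opposite strand.

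Per kb of exon Lyl1 was at 0.509 and 0.358 of the Tal1 level in EHE26 and at 0.566, 0.967 and 0.556 of it in EHE17, against 2.46, 2.08 and 3.06 times the Tal1 level in EHE6. Tal1 was therefore the higher of the pair in all EHE26 and EHE17 libraries and Lyl1 in all EHE6 libraries. Their summed level was 38.3 and 37.0 CPM per kb in EHE26, 23.8, 37.5 and 21.7 in EHE17, and 45.8, 47.2 and 95.1 in EHE6.

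Gata2, the zinc-finger factor of endothelium, mast cells and blood stem cells, is ENSMUSG00000015053, at chr6:88193891-88207032 on the plus strand. It was at 174 and 201 CPM in EHE26, at 32.1, 37.2 and 53.7 CPM in EHE17 and at 21.3, 24.2 and 478 CPM in EHE6. EHE6 replicate 3 was highest of all and its sister libraries lowest of all, and EHE26 lay above EHE17 without overlap. The means were 188 ± 19.6 CPM in EHE26 (SD, n = 2), 41.0 ± 11.3 CPM in EHE17 (SD, n = 3) and 174 ± 263 CPM in EHE6 (SD, n = 3). Over all libraries the log2 fold change was 0.11 ± 1.18 for EHE26 against EHE6, 2.19 ± 1.18 for EHE26 against EHE17 and -2.09 ± 1.10 for EHE17 against EHE6, with edgeR adjusted p of 0.979, 0.370 and 0.825. Without EHE6 replicate 3, edgeR called Gata2 higher in EHE26 than in EHE6 (3.05 ± 0.32, adjusted p = 0.00262, range over 15 alternatives 0.00262 to 1) and higher in EHE26 than in EHE17 (2.18 ± 0.27, adjusted p = 0.00408, range over 15 alternatives 0.00408 to 1). EHE17 against EHE6 then turned to 0.86 ± 0.28 (edgeR adjusted p = 0.365, range over 16 alternatives 0.0288 to 1). Without that library, 8.58%, 7.44% and 0.284% of all genes were called in these comparisons. EHE6 replicate 3 is the only EHE6 library of the second set. Without it, EHE26 against EHE6 therefore compares second-set libraries with first-set ones. EHE26 against EHE17 kept all its libraries, and its value moved only from 2.19 to 2.18. Its SE, which rests on the spread shared by the lines, fell from 1.18 to 0.27. With the library set as a term, EHE26 minus EHE17 was -0.064. Within the second set, where EHE17 and EHE6 have 1 library each, EHE26 stood 1.81 above EHE17 and at -1.35 relative to EHE6, and EHE17 minus EHE6 was -3.16. In the first set EHE17 minus EHE6 was 0.62.

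Gata2 was at 1.27 and 1.37 times the level of Tal1 per kb in EHE26, 0.390, 0.362 and 0.714 times in EHE17, and 0.298, 0.293 and 3.78 times in EHE6. Ranked per kb of exon, Sox18 was the first of the 10 factors in 5 libraries, namely all of EHE17 and EHE6 replicates 1 and 2. Elk3 was first in both EHE26 libraries and Gata2 in EHE6 replicate 3. Sox17 was last in all 8. In EHE26, Elk3 (71.1 ± 5.36 CPM per kb), Erg (51.1 ± 22.7) and Gata2 (34.7 ± 3.62) followed one another (SD, n = 2), and Erg did not differ from either neighbour beyond its spread. EHE17 had Sox18 at 573 ± 369 CPM per kb, Elk3 at 134 ± 24.1 and Erg at 70.3 ± 4.17 (SD, n = 3), each value in a library above the next gene's in that library. In EHE6 the same 3 genes led the means, with Sox18 at 500 ± 418 CPM per kb, Elk3 at 98.7 ± 20.5 and Erg at 74.2 ± 54.7 (SD, n = 3), and neither pair of neighbours differed beyond its spread. The next means in EHE6, Lyl1 at 45.4 ± 22.8 CPM per kb, Gata2 at 32.3 ± 48.6 and Sox7 at 30.7 ± 9.05, overlapped too.

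Across the list, edgeR called 0 of 10 factors in EHE26 against EHE6, where 1.26% of the 18882 genes tested were called, 0 of 10 in EHE26 against EHE17, where 1.08% were, and 0 of 10 in EHE17 against EHE6, where 0.143% were. At an unadjusted p under 0.05 the counts were 4, 5 and 1 of 10, against 15.9%, 16.6% and 6.9% of all genes. DESeq2 called 3 factors in EHE26 against EHE6 (Sox17, Sox18 and Lyl1, where it called 8.03% of genes), 3 in EHE26 against EHE17 (Fli1, Sox17 and Sox18, 8.76%) and 1 in EHE17 against EHE6 (Lyl1, 1.94%). In the second set alone edgeR called Lyl1 in EHE26 against EHE6 (1.95% of genes), Gata2 in EHE26 against EHE17 (3.58%) and both in EHE17 against EHE6 (2.77%). EHE17 and EHE6 have 1 library each there and the spread comes from the EHE26 pair alone, so these calls have no replicate check for those lines. The libraries did not overlap for 7 of 10 factors in EHE26 against EHE6 (31.3% of all genes), for 8 of 10 in EHE26 against EHE17 (39.0%) and for 1 of 10 in EHE17 against EHE6 (12.2%). The 7 were Fli1, Ets1, Elk3, Sox7, Sox17 and Lyl1, with EHE26 lower, and Tal1, with EHE26 higher. The 8 were Erg, Fli1, Ets1, Elk3, Sox17 and Sox18, with EHE26 lower, and Tal1 and Gata2, with EHE26 higher. The median log2 fold change of the 10 was -0.72, -0.45 and -0.09 in the same order of comparisons, beside -0.11, -0.11 and -0.03 over all genes tested. These comparisons share libraries, and both that involve EHE26 carry the library set.

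**Figure D3:**
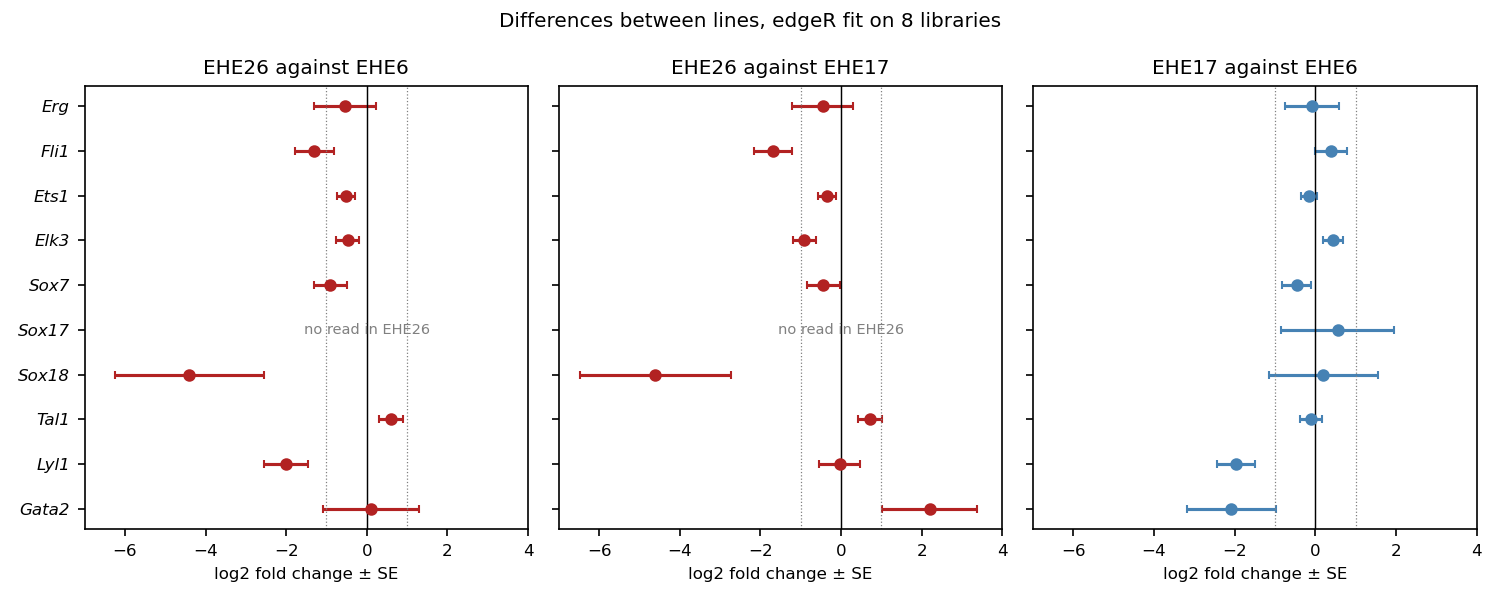
Log2 fold change ± SE of each factor in the 3 comparisons of lines (edgeR fit on all 8 libraries), with dotted lines at the threshold of 1 in either direction. Sox17 has no point where EHE26 had no read, Sox18 has the lowest points and the widest bars in both panels with EHE26, and no point passed the adjusted p.

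Replicate 3 was set against the mean of replicates 1 and 2 of its own line, which compares libraries within a line and has no test. In EHE17 the difference passed 2 on the log2 scale for 1 of 10 factors, Sox17 at -3.83, beside 14.6% of all genes tested. In EHE6 it passed for 4 of 10, beside 21.9% of all genes: Erg at -3.11, Sox17 at -5.63, Sox18 at -5.01 and Gata2 at 4.39. Sox17 and Sox18 thus stood lower in replicate 3 of both lines, with Sox18 at -1.77 in EHE17, and Gata2 stood higher in both, at 0.64 in EHE17. Erg, Tal1 and Lyl1 departed in opposite directions. In EHE17 they were at 0.14, -0.29 and -0.70, against -3.11, 0.72 and 1.15 in EHE6. Between the EHE26 libraries 2 of 10 factors differed by more than 1, Fli1 at -1.50 and Sox18 at -5.26 (replicate 2 minus replicate 1), beside 19.3% of all genes. In EHE6 replicate 3 Pdgfra, a mesenchymal receptor in the fibroblast and mural list, was at 252 CPM, against 3.87 and 5.21 CPM in replicates 1 and 2. The keratin gene Krt18 was at 89.2 CPM in replicate 3, against 7.0 and 4.30 CPM in replicates 1 and 2. Most members of these marker lists went the other way: 4 of 12 fibroblast and mural markers (Pdgfra, Pdgfrb, Cspg4 and Rgs5) and 1 of 8 epithelial markers (Krt18) stood above the mean of replicates 1 and 2, and 8 and 7 below. Among those below were Acta2, a smooth muscle actin, at -4.79, Lum at -6.28 and Dcn at -4.21, which encode matrix proteoglycans, and Epcam at -7.81 on the log2 scale. The summed fibroblast and mural markers of replicate 3, 491 CPM, lay between 717 and 338 CPM in replicates 1 and 2. Ptprc, the pan-leukocyte marker, was at 0.381 to 1.49 CPM over all libraries, and Col1a1 at 1.0 to 7.75 CPM. The part of these markers in the differences of replicate 3 was not tested.

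**Figure D4:**
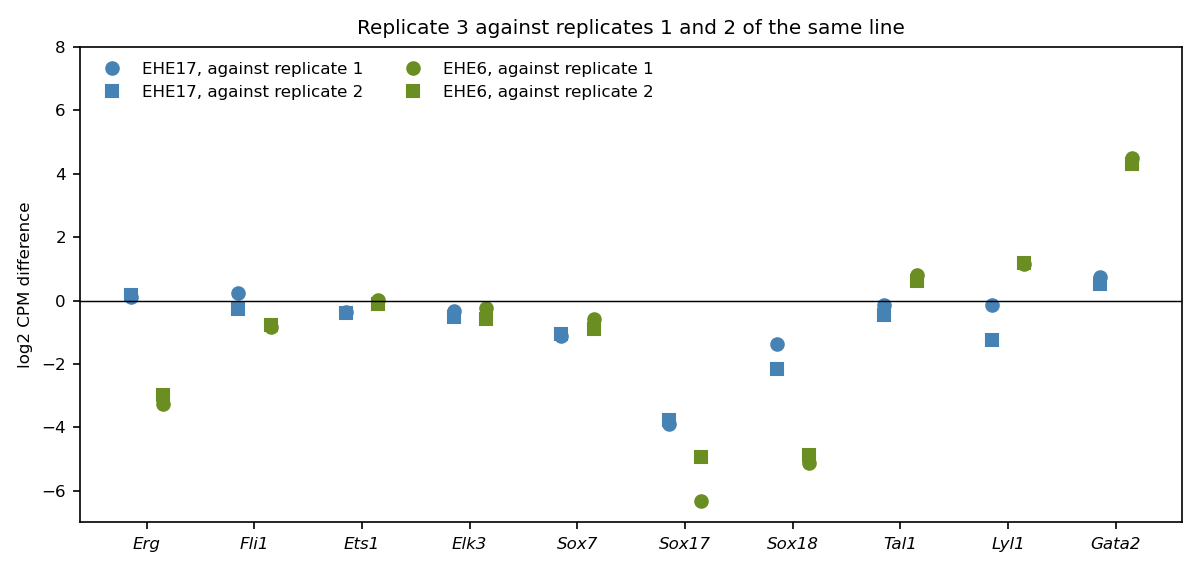
Difference in log2 CPM between replicate 3 and replicate 1 (circles) or replicate 2 (squares) of the same line, for each factor in EHE17 (blue) and EHE6 (green). Erg, Tal1 and Lyl1 lie on opposite sides of 0 in the 2 lines, and Gata2 in EHE6 lies highest.

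The partners of the Tal1 and Gata2 complex were described from a list of 17 bHLH and GATA complex genes, of which 14 passed the filter. Lmo2, the bridging protein between Tal1 and GATA factors, was at 10.8 and 1.47 CPM in EHE26, at 94.8, 149.9 and 163 CPM in EHE17 and at 86.7, 66.1 and 8.70 CPM in EHE6. EHE6 replicate 3 lay with EHE26, as for Sox18, while EHE17 replicate 3 was the highest library. Its log2 fold change in EHE26 was -3.13 ± 1.11 relative to EHE6 (edgeR adjusted p = 0.260) and -4.46 ± 1.19 relative to EHE17 (edgeR adjusted p = 0.143). The other core partners were present in every library: Ldb1, the dimerising adaptor, at 139 to 226 CPM, and the E proteins Tcf3 at 95.2 to 207 CPM and Tcf4 at 187 to 582 CPM. Runx1, a blood factor that follows Gata2 and Tal1 in the haemogenic endothelium, was at 2.73 to 6.58 CPM. Cbfa2t3, a corepressor that joins the same complex and was singled out after its values were seen, was at 2.52 and 0.329 CPM in EHE26, at 21.7, 22.4 and 21.2 CPM in EHE17 and at 21.7, 26.1 and 23.6 CPM in EHE6. Unlike Lmo2 in EHE6 replicate 3, Cbfa2t3 was about as high in the replicate 3 libraries as in the others of their lines. EHE26 stood apart for Cbfa2t3. Its log2 fold change was -4.06 ± 0.78 against EHE6 and -3.92 ± 0.77 against EHE17, with edgeR adjusted p of 0.0579 and 0.0670.

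The 14 tested genes of this list also include Id1, Id2, Id3, Gata3, Gata4 and Gata6, listed beside the partners named above. Of the 14, edgeR called 1 in EHE26 against EHE6 (Gata4), 1 in EHE26 against EHE17 (Gata3) and 0 in EHE17 against EHE6. The shares of all genes called were 1.26%, 1.08% and 0.143%. In that order 5, 6 and 4 had an unadjusted p under 0.05, beside 15.9%, 16.6% and 6.9% of all genes. DESeq2 called 5, 3 and 1, beside 8.03%, 8.76% and 1.94% of all genes. The same shares stand beside the counts of the other ETS and vascular lists below. Gata4, a GATA factor of heart and endoderm and of some endothelium, rose in EHE26 to 139 and 236 CPM, against 34.7, 35.6 and 35.6 CPM in EHE6 (log2 fold change 2.41 ± 0.28, edgeR adjusted p = 0.00741), with 109, 82.8 and 84.0 CPM in EHE17. Gata3, better known in T cells and epithelia, rose in EHE26 to 15.1 and 15.7 CPM, against 2.72, 1.48 and 0.803 CPM in EHE17 (3.20 ± 0.56, edgeR adjusted p = 0.0466), with 2.84, 3.66 and 5.4 CPM in EHE6. For both, EHE26 lay above the replicate 3 libraries of the second set as well. The median log2 fold change of the 14 in EHE26 was 0.11 relative to EHE6 and 0.03 relative to EHE17. Of 20 other ETS genes 16 were tested and 0 were called in any comparison by edgeR, with 4, 5 and 0 at an unadjusted p under 0.05 for EHE26 against EHE6, EHE26 against EHE17 and EHE17 against EHE6, and 2, 2 and 0 called by DESeq2. Etv2, the ETS factor that starts the endothelial programme in the embryo, had no read in any library, and Spi1, the ETS factor of myeloid cells, was at 0.133 to 0.882 CPM. Of 18 other vascular transcription factors edgeR called 0 of 18 in each comparison, with 5, 4 and 2 at an unadjusted p under 0.05 and 1, 3 and 1 called by DESeq2 in the same order.

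Effector genes of the endothelium served to check the endothelial label. Pecam1, a junction adhesion molecule, was at 1401 and 1295 CPM in EHE26, at 1675, 1651 and 1382 CPM in EHE17 and at 1495, 1658 and 1179 CPM in EHE6. Cdh5, VE-cadherin, was at 1960 and 2033 CPM in EHE26, at 3400, 3290 and 1963 CPM in EHE17 and at 3878, 4890 and 1056 CPM in EHE6. Both defining markers were abundant in every library. Kdr, the main VEGF receptor, was at 102 and 46.2 CPM in EHE26, at 569, 669 and 243 CPM in EHE17 and at 829, 1042 and 22.1 CPM in EHE6. The angiopoietin receptor family gene Tie1 was at 202 and 37.3 CPM in EHE26, at 876, 1212 and 714 CPM in EHE17 and at 1219, 1258 and 141 CPM in EHE6. These receptors were low in the same libraries as Sox18, namely EHE26 and EHE6 replicate 3. Tek, the angiopoietin receptor, ranged from 47.4 CPM in EHE26 replicate 2 to 424 CPM in EHE6 replicate 2, with 56.4 CPM in EHE6 replicate 3. Icam2, an endothelial adhesion molecule, ranged from 79.1 CPM in EHE26 replicate 1 to 220.3 CPM in EHE6 replicate 1, with 92.8 CPM in EHE6 replicate 3.

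Of 24 effector genes, all tested, 1 was called higher and 0 lower in EHE26 against EHE6, 1 higher and 1 lower in EHE26 against EHE17, and 0 in EHE17 against EHE6 by edgeR, beside 1.26%, 1.08% and 0.143% of all genes. In that order 10, 9 and 3 had an unadjusted p under 0.05, beside 15.9%, 16.6% and 6.9% of all genes. DESeq2 called 8, 8 and 2, beside its 8.03%, 8.76% and 1.94% of all genes. Their median log2 fold change was -1.45, -1.44 and 0.11 in that order, with 23, 21 and 11 of 24 negative. Cd34, a sialomucin of capillary endothelium and blood progenitors, rose in EHE26 to 461 and 357 CPM, against 13.7, 22.9 and 16.7 CPM in EHE17 and 55.6, 47.6 and 92.7 CPM in EHE6. Its log2 fold change was 4.53 ± 0.39 against EHE17 and 2.65 ± 0.36 against EHE6 (edgeR adjusted p of 0.00779 and 0.0168). Plvap, the protein of fenestral diaphragms, fell in EHE26 to 538 and 442 CPM, against 3955, 3505 and 5941 CPM in EHE17 (-3.19 ± 0.38, edgeR adjusted p = 0.0120), and stood at 1568, 1508 and 1117 CPM in EHE6. Both genes set EHE26 apart from the replicate 3 libraries too.

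**Figure D5:**
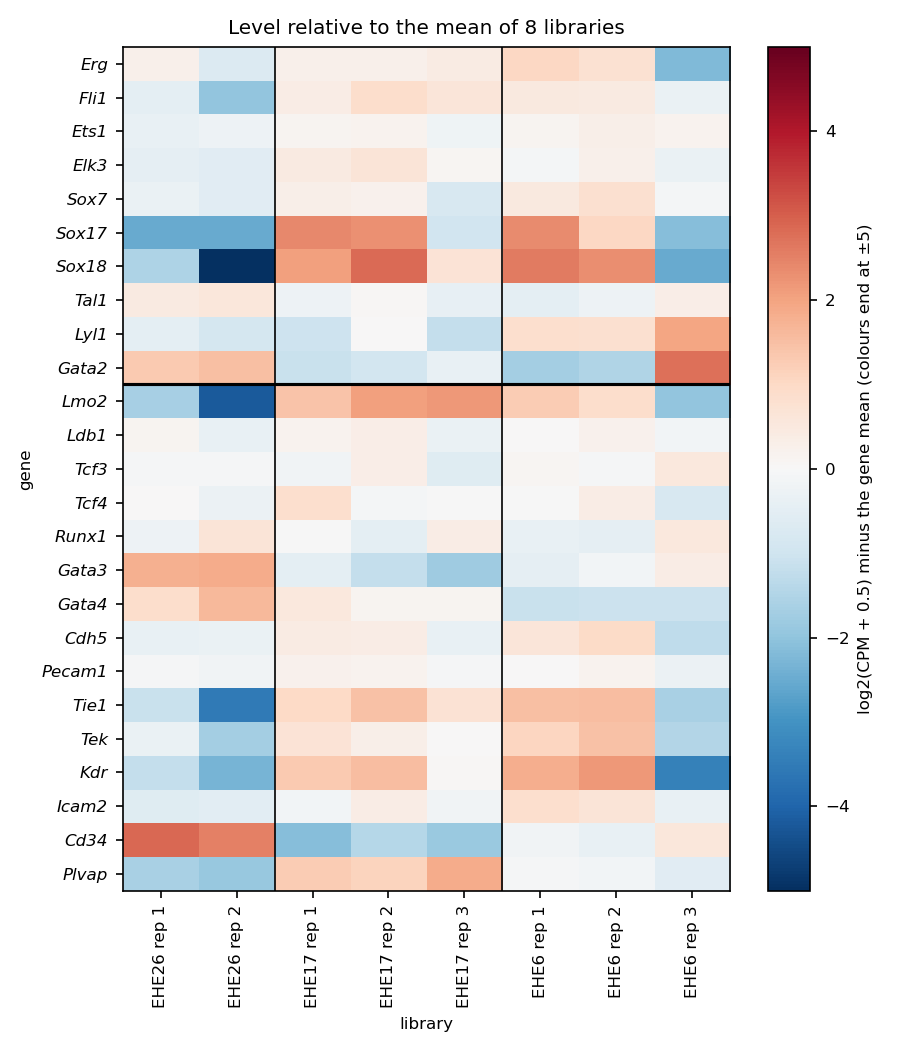
Level of the 10 factors (above the thick line) and of genes of the partner and effector lists (below it) in each library. Values are log2(CPM + 0.5) minus the mean of the gene over the 8 libraries, with colours ending at 5 in either direction. Sox17, Sox18, Lmo2, Tie1 and Kdr are low in EHE26 and in EHE6 replicate 3, Gata2 is high in those libraries, and Cd34 is highest in EHE26. Sox17 is low in EHE17 replicate 3 too.

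Other cell types were checked by their markers. Counts stand in the order EHE26 against EHE6, EHE26 against EHE17, EHE17 against EHE6. Over all genes edgeR called 1.26%, 1.08% and 0.143% and DESeq2 8.03%, 8.76% and 1.94%. An unadjusted p under 0.05 was held by 15.9%, 16.6% and 6.9%. Of 8 epithelial markers edgeR called 0 in each comparison, with 4, 2 and 0 at an unadjusted p under 0.05 and 3, 3 and 0 called by DESeq2. Their median fitted log2 fold change was -7.32 in EHE26 against EHE6 and -6.84 in EHE26 against EHE17. In EHE26, Krt5 and Cldn4 were at 0 CPM and Epcam and Cdh1 at 0.037 CPM or less. The size of these medians is therefore not reliable. Epcam was at 0.037 and 0 CPM in EHE26, at 3.89, 8.14 and 0 CPM in EHE17 and at 9.79, 4.97 and 0 CPM in EHE6. It was thus read in the first set and at or near 0 in the second. Of 12 fibroblast and mural markers 1 was called, Cspg4, a pericyte proteoglycan, which rose in EHE26 to 18.5 and 24.5 CPM, against 0.422, 0.432 and 0.080 CPM in EHE17 (6.08 ± 0.95, edgeR adjusted p = 0.0323). In the order EHE26 against EHE6, EHE26 against EHE17 and EHE17 against EHE6, edgeR called 0, 1 and 0 of these markers, with 4, 4 and 4 at an unadjusted p under 0.05, and DESeq2 3, 2 and 2. Of the 8 leukocyte and blood markers tested edgeR called 0 in each comparison and DESeq2 0, with 2, 1 and 0 at an unadjusted p under 0.05, and their sums were 24.1 and 28.5 CPM in EHE26, 40.4 to 62.8 CPM in EHE17 and 29.7 to 70.3 CPM in EHE6.

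The genes whose profile over the 8 libraries lay closest to each factor were taken as the 3 highest Pearson correlations of log2 CPM among 10292 genes. They describe 8 points that form 2 sets of unlike depth, and they carry no test. For Sox18 these were Sema6a, Thsd1 and Kank3 (r of 0.99 each), and for Sox17 Tmem131l, Col4a2 and Smtn (0.99, 0.99 and 0.98). The nearest to Sox7 were Kcnk6, Lamb1 and Tjp1 (all 0.99). Erg lay nearest to Fbxl7, Fam114a2 and Trim62 (0.98, 0.98 and 0.97), Fli1 to Pcsk6, Igfbp4 and Ednrb (0.99, 0.99 and 0.98), Ets1 to mt-Co2, Ankrd52 and Polr2a (all 0.97), and Elk3 to Maml1, Chka and B4galt3 (0.98, 0.97 and 0.96). Gata2 lay nearest to Auh, Gsdme and Ttc7 (all 0.99), Tal1 to Nynrin, S1pr2 and Loxl3 (0.99, 0.99 and 0.97), and Lyl1 to Lrrc14, Pcbp2 and Pwp1 (all 0.94). No factor was among the 3 nearest of another. At an r of 0.9 or more Gata2 had 329 genes, Sox17 295 and Sox18 209, against 17 for Lyl1, and the other 6 had 81 to 135.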

How the data were processed

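The authors deposited raw read counts for each Ensembl gene. HISAT2 and mm10 are named in the submitters' processing notes. How reads were counted, on which annotation and strand, and the aligner's version are not given in the sources used here. Per the labels' protocols, RNA was extracted with RNeasy Mini and polyA libraries were made with NEBNext Ultra II. Symbols and positions came from GENCODE M21 (55141 of 55401 identifiers, the others with no more than 0.0181% of any library's counts), exon lengths from merged exons. Total counts were 44620965 to 96237665 per library, which limits low values such as Sox17 most.

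All 8 libraries entered 1 edgeR quasi-likelihood model (edgeR 4.0.16, R 4.3.3) with TMM factors, filterByExpr by line and no term but the line. The Benjamini-Hochberg adjustment covered the 18882 genes tested, and SE is the size of the log2 fold change over the square root of F. The common coefficient of biological variation was 0.600. DESeq2 1.42.0 and the other alternatives are in the closing section. The fits were tested on simulated data. Log2 CPM for differences within lines and for correlations used a prior count of 2, and nearest genes needed a mean of 5 CPM.

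All 10 members are named, with called genes of the other lists and a fixed group of partners and effectors. The lists (other ETS factors, bHLH and GATA complex partners, other vascular transcription factors, endothelial effectors, leukocyte and blood, fibroblast and mural, epithelial markers) and the members were chosen with earlier results of these data known. Departures from the line means correlated across genes at 0.132, 0.180 and 0.574 between same-numbered EHE17 and EHE6 libraries, each over 0.1. These values come from the data and not from the labels, and the main fit did not use the numbers as pairs. Unlike numbers correlated more for replicates 1 and 2: 0.623 between EHE17 replicate 1 and EHE6 replicate 2, and 0.536 between EHE17 replicate 2 and EHE6 replicate 1. The numbers therefore do not establish pairs, and the replicate block in the closing section is an alternative setting only. For EHE26, libraries with the same number as one of another line correlated at -0.115 to 0.182.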

Additional observations from a re-analysis of the deposited data

Results flagged for a closer look

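Erg, Tal1 and Lyl1 were flagged because replicate 3 departed from replicates 1 and 2 in opposite directions in EHE17 and EHE6, in every comparison with a single replicate. The flag uses direction alone, and Erg in EHE17 replicate 3 stood only 0.13 and 0.16 above replicates 1 and 2. Other listed genes, among them Lmo2, Tcf3 and Prox1, met the same rule. The share of all genes that did was not counted. On the log2 CPM scale, the departure of replicate 3 in EHE17 minus that in EHE6 was 3.26 for Erg, -1.01 for Tal1 and -1.85 for Lyl1. With 1 library of replicate 3 per line the difference was not tested.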

How the results depend on the processing

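The counts of calls moved with the tool and the libraries, and the cause was not tested. In this paragraph counts stand in the order EHE26 against EHE6, EHE26 against EHE17, EHE17 against EHE6, and the main counts were 237, 203 and 27 genes and 0, 0 and 0 of the 10 factors. DESeq2 called 1570 (648 higher, 922 lower), 1712 (673 higher, 1039 lower) and 392 (244 higher, 148 lower) genes, where edgeR had 207 and 30, 168 and 35, and 15 and 12, and it called 3, 3 and 1 factors. With no filter the counts were 547, 745 and 142 genes and 1, 1 and 0 factors, Sox17. With the 2 compared lines alone they were 126, 764 and 7 genes and 0, 2 and 0 factors (Sox17 and Gata2). Leaving out 1 library in turn gave 65 to 1632, 2 to 1415 and 1 to 54 genes, and 0 to 2, 0 to 2 and 0 factors. The 2 were Sox17 and Gata2 without EHE6 replicate 3, and where 1 library of a line was left it was assumed to vary like the others. With the replicate block the counts were 1459 (674 higher, 785 lower), 1860 (918 higher, 942 lower) and 33 genes and 1, 1 and 0 factors (Sox17). In EHE17 against EHE6 the block changed no factor's call, and the replicate numbers are not established as pairs. DESeq2 size factors gave 230, 204 and 27 genes and no factor.

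Settings with the library set were chosen after seeing the data. With the set as a term 356, 319 and 102 genes and no factor were called. The second set alone gave 334, 612 and 473 genes and 1 (Lyl1), 1 (Gata2) and 2 (Lyl1, Gata2) factors, with the spread resting on the EHE26 pair. The first set alone gave 97 genes and no factor for EHE17 against EHE6.

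Of the factors' log2 fold changes under these settings 28 reversed, 411 kept their direction and side of the threshold and 21 passed it. In EHE17 against EHE6, Erg (-0.08) became 0.37 with the replicate block, 0.35 with the set term and 2.63 in the second set, and spanned -0.57 to 0.38 with 1 library left out. Left-out libraries took Sox17 (0.55) to between -0.013 and 1.80, Sox18 (0.20) to between -0.36 and 0.72, Tal1 (-0.11) to between -0.27 and 0.19 and Gata2 (-2.09) to between -2.61 and 0.86. In the first set Tal1 was 0.28 and Gata2 0.62. In EHE26 against EHE6, Erg (-0.54) became 0.53 with the set term and 2.08 in the second set, and Sox18 (-4.41) 0.042 in the second set. Gata2 (0.11) became -0.56 with the set term and -1.35 in the second set, and spanned -0.42 to 3.05 with 1 library left out. In EHE26 against EHE17, the set term gave 0.18 for Erg (-0.46), 0.25 for Sox7 (-0.44) and -0.064 for Gata2 (2.19), and the second set 0.37 for Sox7 and 0.55 for Lyl1 (-0.03). Lyl1 was 0.094 with the replicate block and spanned -0.25 to 0.46 with 1 library left out. Ets1, Elk3 and Fli1 kept their direction under every setting run. With 0 reads in EHE26, depth limits Sox17 to the bounds given.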
